A study of Mus musculus with 24 samples.

Results

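The comparison concerns how gene expression in mouse liver was ordered from normal liver, through liver beside a tumour and hepatocellular carcinoma, to hepatoblastoma, and which genes stepped at each of these stages rather than in 1 group only. All 24 arrays of the study belong to it, and none was left out. The groups are those of the sample titles, 6 arrays each, all liver tissue of B6C3F1 mice: Vehicle_Normal, normal liver of mice given the corn oil vehicle; BDCA_Normal, non-tumour liver beside a tumour; BDCA_HCC, hepatocellular carcinoma; and BDCA_HB, hepatoblastoma. The labels describe a chronic corn oil gavage bioassay of Ginkgo biloba extract in male and female B6C3F1 mice. They give neither the dose, sex, age nor animal of a sample, and they do not spell out BDCA, so treatment and lesion cannot be told apart between the vehicle group and the other groups. Because the labels do not tie samples to animals, p-values here measure the spread between samples.

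The liver tumours of this strain run from adenoma and carcinoma, made of recognisable hepatocytes, to hepatoblastoma, an embryonal tumour that in mice usually grows within or beside a hepatocellular tumour. Beta-catenin, the transcriptional arm of Wnt signalling, is often mutated in hepatoblastoma; it acts with TCF and LEF factors, and its feedback targets serve as a readout of the pathway. Adult hepatocytes secrete most plasma proteins and carry out urea, bile acid and drug metabolism, whereas fetal liver makes Afp, Igf2 and other oncofetal products. The order used here is one of lesion groups in different samples, not a time course, and equal spacing of the stages is an assumption of the straight line.

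Each gene was represented by its brightest probe set, and 14086 genes passed a filter on dim signal. Values are array intensities scaled by the authors to a common trimmed mean, and differences are on the log2(intensity + 16) scale, which understates changes of dim genes. BDCA_HCC replicates 3 and 4 differed by a median of only 0.168 log2 over bright probe sets, against at least 0.319 log2 in every other within-group pair, and were averaged to 1 sample, which left 23 samples. Over all genes, the leading axis of variation (60.6% of the variance) placed vehicle liver from -76.1 to -64.5, adjacent liver from -70.0 to -43.8, carcinoma from -40.0 to -27.1 and hepatoblastoma from 131 to 180.5. The groups thus kept the assumed order on that axis, with vehicle and adjacent liver overlapping, but hepatoblastoma stood far from the other 3 groups, and its replicates 4 and 5 (131 and 135) lay nearer to them than the other hepatoblastomas. The median intensity of an array was 144 to 202 in hepatoblastoma and 75.8 to 145 in the other groups, and Xist, the noncoding RNA of the inactive X chromosome, was above 1000 on 4 of 6 vehicle arrays, 1 of 6 adjacent liver arrays and on no tumour array. Xist signal and stage are therefore partly mixed.

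Along the order, Wnt target genes rose and hepatocyte functions fell, chiefly between carcinoma and hepatoblastoma: 19 of 20 measured Wnt target genes had a called rise, and all 22 complement and coagulation genes a called fall. In a smaller set the group means moved by at least 0.5 log2 at every stage, though no gene had all 3 steps called. Its rises were led by Inhbb, an activin subunit, which rose by 2.20 ± 0.15 log2 per stage (SE, 23 samples). Its falls were led by Sult2a8, a sulfotransferase, which fell by 2.97 ± 0.17. The first step was not called in either gene. Far more genes, such as Hoxd9 and Hrg, changed in hepatoblastoma only. A linear trend over the 4 groups, tested in limma with Benjamini-Hochberg adjustment at 0.05, was called for 8350 genes, 59.3% of those tested. Of these, 5174 rose (36.7%) and 3176 fell (22.5%). That split depends on the scaling: rising genes made up 62.0% of the calls on the deposited scale, 49.8% after quantile normalization (3894 rising, 3931 falling) and 36.0% when each array was centred on its median (2775 rising, 4932 falling). The median gene was 0.34 log2 higher in hepatoblastoma than in vehicle liver as deposited, -0.01 after quantile normalization and -0.28 after centring, so small rises are relative to that shift. Without the 5 arrays with Xist signal, a trend was called for 6422 genes.

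A called trend did not make a gene graded. The joint test of departure from a straight line was called for 4569 genes (32.4%), and 3827 genes (27.2%) had both calls, against 4523 (32.1%) with a trend and no called departure and 742 (5.27%) with a departure and no trend. Between adjacent groups, 14 genes differed from vehicle to adjacent liver (0.0994%; 11 higher, 0.0781%, and 3 lower, 0.0213%), 256 from adjacent liver to carcinoma (1.82%; 184 higher, 1.31%, and 72 lower, 0.511%) and 7119 from carcinoma to hepatoblastoma (50.5%; 4072 higher, 28.9%, and 3047 lower, 21.6%). At an unadjusted p under 0.05 the numbers were 1449, 1866 and 7968. The first count was 2 without BDCA_Normal replicate 1 or without Vehicle_Normal replicate 4, 3 without BDCA_Normal replicate 3, Vehicle_Normal replicate 1 or Vehicle_Normal replicate 2, 7 without BDCA_Normal replicate 4 or 5, 9 without BDCA_HB replicate 1, 23 without BDCA_HCC replicate 5 and 33 without BDCA_HCC replicate 1. The second was 609 without BDCA_HCC replicate 1, 136 without BDCA_HCC replicate 5, 130 without BDCA_HCC replicate 6, 154 without BDCA_Normal replicate 3 and 144 without BDCA_Normal replicate 5.

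The last stage carried most of the change. Hepatoblastoma differed from vehicle liver in 8487 genes (60.3%; 5239 higher, 37.2%, and 3248 lower, 23.1%). Among the 6450 genes with a called trend and at least 1 log2 between vehicle liver and hepatoblastoma, the median share of that difference was 7.51% at the first step, 11.1% at the second and 80.6% at the third. The third step was the largest for 5559 of these genes (86.2%), the second for 569 and the first for 322. Carcinoma had covered a median of 19.4% of the way (quartiles 3.77% and 39.2%), with 57.9% of the genes below 25% of the way, 36.2% between 25% and 75% and 5.83% beyond 75%. The trend over the first 3 groups was called for 1019 genes (7.23%; 615 rising, 4.37%, and 404 falling, 2.87%). The trend over the last 3 groups was called for 7964 (56.5%; 4810 rising, 34.1%, and 3154 falling, 22.4%). With 3 evenly spaced groups such a slope rests on the outer groups alone: carcinoma minus vehicle liver, and hepatoblastoma minus adjacent liver. The middle group has no weight in it, and all groups stayed in the fit for the spread. The count over the first 3 groups was 656 without BDCA_HCC replicate 5, 193 without the 5 arrays with Xist signal and 410 with Xist signal as a covariate.

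**Figure D1:**
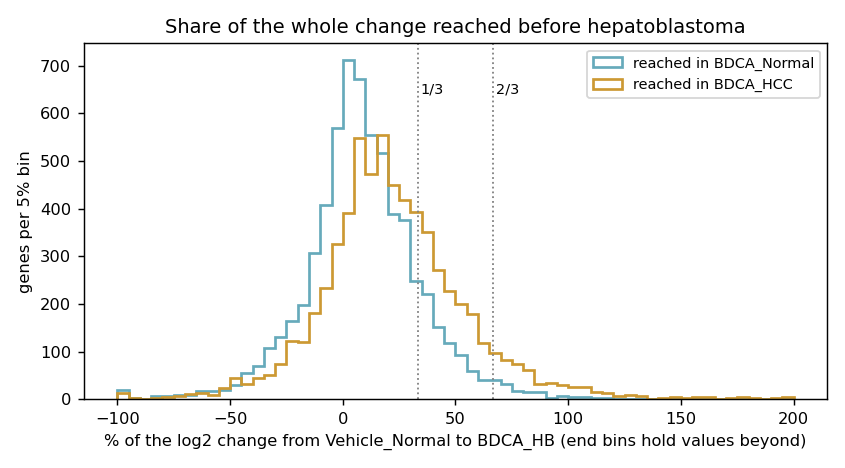
Share of the change from vehicle liver to hepatoblastoma that had been reached in adjacent liver and in carcinoma, for 6450 genes with a called linear trend and at least 1 log2 of change. The horizontal axis is the percent of the way from the vehicle mean to the hepatoblastoma mean and the vertical axis the number of genes; dotted lines mark where an evenly spaced straight line would lie, and most genes in carcinoma lie below the mark, with a median of 19.4%.

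Genes with a step at each stage were defined as those with a called trend whose 3 successive group means differed by at least 0.5 log2 in the direction of the slope. They numbered 244 (1.73% of the genes tested), 91 rising (0.646%) and 153 falling (1.09%). That split moved with the scale: it was 52 rising and 165 falling after quantile normalization, 45 and 232 after median centring, 182 and 172 with a pseudocount of 1 and 29 and 113 with 64. Around the limit, Gm4951, Olfml1 and Rrn3 lay just inside with smallest steps of 0.5001, 0.5001 and 0.5009 log2, and 4930503L19Rik, Akr1c6 and Tprkb just outside with 0.4991, 0.4987 and 0.4976. For comparison, 3786 genes (26.9%) moved one way at all 3 steps by any amount, 3342 of them (23.7%) with a called trend. No gene had all 3 steps called (0.00%), and in no gene did every sample of each stage lie beyond every sample of the stage before it (0.00%). At an unadjusted p under 0.05, 45 genes had all 3 steps in one direction.

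Within the class, the steps remained unequal. The rising genes made a median 24.4% of their change at the first step, 28.5% at the second and 45.3% at the third, and the falling genes 21.1%, 24.4% and 52.2%. The third step was the largest for 64 of the 91 rising and 116 of the 153 falling genes, and 12 rising and 53 falling genes departed from a straight line (65 in all, 0.461%). Of the rising genes, the first step was called in none, the second in 7 and the third in 61. Of the falling genes, the first step was called in 1 (Serpinb1a, a protease inhibitor, named after its value was seen), the second in 17 and the third in 115. Samples of adjacent stages did not overlap at the first, the second and the third step in 2, 4 and 32 rising genes and in 10, 6 and 56 falling genes. Over all tested genes, the samples lay apart with the later stage higher in 0.632%, 1.07% and 16.7% at the 3 steps and lower in 0.589%, 0.447% and 11.9%; since the class was chosen on these steps, nothing is read from the difference. Between vehicle liver and carcinoma, which alone set the trend over the first 3 groups, 54 of the rising and 105 of the falling genes differed. These counts describe genes chosen from the same samples and are not a test of the class.

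The promoters of the 2 rising and 2 falling genes with the largest smallest step that the table of promoters held are shown, because the rest of the section turns on such genes. Each runs from 250 bases before the annotated start to 50 after it, 5′ to 3′ on the gene's strand, from RefSeq on GRCm38.p6. Inhbb lies at chr1:119422199-119422498 on the minus strand, Smox at chr2:131491612-131491911 on the plus strand, Sult2a8 at chr7:14446538-14446837 on the minus strand and Etnppl at chr3:130617198-130617497 on the plus strand. Sult2a8 and Etnppl each have 2 promoters in the table, of which the first is shown.
Inhbb: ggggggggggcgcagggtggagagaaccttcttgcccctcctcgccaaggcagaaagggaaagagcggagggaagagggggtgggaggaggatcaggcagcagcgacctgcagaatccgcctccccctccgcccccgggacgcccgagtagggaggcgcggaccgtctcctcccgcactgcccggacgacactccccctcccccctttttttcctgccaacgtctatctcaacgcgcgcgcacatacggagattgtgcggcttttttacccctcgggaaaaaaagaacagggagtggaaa
Smox: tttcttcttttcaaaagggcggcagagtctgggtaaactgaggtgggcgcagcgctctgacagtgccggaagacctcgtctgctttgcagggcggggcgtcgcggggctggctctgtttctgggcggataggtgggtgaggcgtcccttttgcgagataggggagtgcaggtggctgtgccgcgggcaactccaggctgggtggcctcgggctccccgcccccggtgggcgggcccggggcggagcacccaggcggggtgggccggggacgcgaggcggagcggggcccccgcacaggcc
Sult2a8: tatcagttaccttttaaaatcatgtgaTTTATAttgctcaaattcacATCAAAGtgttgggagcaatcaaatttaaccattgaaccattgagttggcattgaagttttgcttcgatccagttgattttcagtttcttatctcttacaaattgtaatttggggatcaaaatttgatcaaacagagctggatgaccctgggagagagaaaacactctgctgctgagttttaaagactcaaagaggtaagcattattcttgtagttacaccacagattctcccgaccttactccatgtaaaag
Etnppl: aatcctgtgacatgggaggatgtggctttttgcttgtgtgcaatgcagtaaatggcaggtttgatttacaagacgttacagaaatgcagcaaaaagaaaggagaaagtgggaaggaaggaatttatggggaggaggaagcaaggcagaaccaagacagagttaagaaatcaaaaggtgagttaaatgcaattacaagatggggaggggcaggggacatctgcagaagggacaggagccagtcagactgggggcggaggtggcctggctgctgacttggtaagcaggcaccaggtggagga
Capitals in Sult2a8 mark the only matches, in these 4 windows, to 4 motifs searched on both strands: the TATA box TATAAA and the TCF/LEF core CTTTGAT, both on the strand opposite to the gene, with the matches beginning 223 and 203 bases before the start. The rising Inhbb and Smox promoters held 64.3% and 71% G or C and 23 and 27 CpG pairs, and the falling Sult2a8 and Etnppl promoters 36% and 49.3% G or C and 2 CpG pairs each. Over the class, the 67 rising genes with a promoter in the table had a median of 22 CpG pairs, near the 20 of all 11296 tested genes with a promoter. The 121 falling genes had a median of 6. CTTTGAT was present in 7.46% of the rising (5 promoters), 5.79% of the falling (7 promoters) and 2.64% of all these promoters. In the same order, CCAAT was present in 40.3%, 41.3% and 38.3%, the HNF1 core GTTAAT in 2.99%, 7.44% and 4.51%, and TATAAA in 8.96%, 15.7% and 7.83%. These shares describe letters in the windows and were not tested.

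The rising genes with the largest smallest steps were Inhbb, Smox, Lef1, Airn, Gdpd1, Golm2, Smpd3, Kif20a, Asns and Chek1. Inhbb encodes the beta-B subunit shared by activin B and inhibin B, secreted ligands of the TGF-beta family. Its intensity ran from 5.03 to 102 in vehicle liver (median 43.3), from 25.4 to 459.9 in adjacent liver (median 188) and from 3341 to 6325 in hepatoblastoma (median 4755), and the 5 carcinomas read 413, 811, 869, 989.6 and 1028. Each group lay above the one before, with overlap at the first and second step and none at the third. The slope was 2.20 ± 0.15 log2 per stage (SE; limma adjusted p = 4.30e-12), with steps of 1.72 ± 0.47 (adjusted p = 0.158), 2.30 ± 0.50 (0.0142) and 2.54 ± 0.50 (1.44e-04), and no departure from a line was called (adjusted p = 0.613). Without BDCA_HCC replicates 1 and 5 together the second step of Inhbb was 2.06 (adjusted p = 0.0646), and its other probe set gave a slope of 1.14 with a first step of 0.43.

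Smox, spermine oxidase of polyamine breakdown, rose in the most even steps of the 10 on its brightest probe set, while its other probe set had steps of -0.21, 0.64 and 2.51. It read 8.84 to 167 in vehicle liver (median 59.2), 133 to 182 in adjacent liver (median 162), 158, 237, 543, 623 and 659 in the carcinomas and 462 to 1939.7 in hepatoblastoma (median 1044). Neighbouring groups overlapped at every stage, while vehicle liver and hepatoblastoma did not. The slope was 1.26 ± 0.13 log2 per stage (limma adjusted p = 1.17e-08) and the steps 1.26, 1.20 and 1.33, of which the third was called (adjusted p = 0.0137). That step of Smox was 1.03 (adjusted p = 0.0558) without BDCA_HCC replicate 1, 1.14 (0.0543) after quantile normalization and 0.81 (0.147) after median centring.

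Lef1, a transcription factor through which beta-catenin acts, rose unevenly. Its carcinoma values were 14.7, 59.3, 336, 710.0 and 769.9, against 5.60 to 48.6 in vehicle liver (median 23.3), 17.4 to 323 in adjacent liver (median 58.7) and 3298 to 5338 in hepatoblastoma (median 4591). The carcinomas therefore spread over both normal groups, and only hepatoblastoma stood apart. The steps were 1.19, 1.35 and 4.39 ± 0.64 log2 (limma adjusted p of the third, 3.22e-06), with a called departure from a line (0.0144). On the other Lef1 probe set the steps were 0.004, 1.32 and 4.49.

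Airn, a noncoding RNA transcribed antisense over the imprinted Igf2r gene, read 117 to 297 in vehicle liver, 242 to 1557 in adjacent liver, 330.3 to 3421 in carcinoma and 1519 to 4076 in hepatoblastoma. Its slope was 1.28 ± 0.14 log2 per stage (limma adjusted p = 1.18e-08), with steps of 1.54, 1.19 and 1.15. The third step of Airn (adjusted p = 0.0348) was 0.70 (0.157) without BDCA_HCC replicate 1 and was not called without BDCA_HB replicate 3, 4 or 5 or BDCA_HCC replicate 6 either (1.02 to 1.12, adjusted p from 0.0529 to 0.0766). Of its 3 other probe sets, 1 had steps of -0.07, 0.29 and 2.27. Asns, which makes asparagine, placed its largest step before hepatoblastoma. It was 0.543 to 188 in vehicle liver (median 19.5) and 14.8 to 384 in adjacent liver (median 81.9), reached 150.1, 1469.7, 2028, 2274 and 2444 in the carcinomas, and was 1266 to 7932 in hepatoblastoma (median 2314). The second step of Asns was 3.49 ± 0.70 log2 (limma adjusted p = 0.00792) and the third 0.99 ± 0.70 (0.244). Without BDCA_HCC replicate 1, the lowest carcinoma, these were 4.21 (2.13e-04) and 0.27 (0.745), and Asns was then outside the class, as it was after median centring.

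Other rising members included cell-cycle and lipid genes. Chek1, the checkpoint kinase, rose with steps of 1.38, 0.97 and 1.41 log2 from a vehicle median of 4.62 to a hepatoblastoma median of 354 (slope 1.23 ± 0.14, limma adjusted p = 4.94e-08). On the other Chek1 probe set the steps were 0.37, 0.50 and 1.28. Kif20a, a mitotic kinesin, had steps of 1.47, 1.00 and 1.67, and Gdpd1, a glycerophosphodiester phosphodiesterase, 1.13, 1.12 and 2.24. Smpd3, a neutral sphingomyelinase, had steps of 1.74, 1.11 and 1.01, but 0.29, -0.11 and 1.96 on one other probe set and 0.21, 0.65 and 1.12 on the other, and it was outside the class after median centring. Golm2 had steps of 1.06, 1.80 and 2.51, but its other probe set had a first step of -0.06. Myc, the growth-promoting transcription factor, was also in the class: vehicle liver (274 to 590.1) and adjacent liver (594 to 1433) did not overlap, carcinoma read 1059 to 2190.0 and hepatoblastoma 910.0 to 5149.8, with a slope of 0.83 ± 0.10 (limma adjusted p = 1.26e-07). The first step of Myc, 0.75, was not called. With the 5 arrays of Xist signal left out, 52 of the 91 rising genes were still in a class that then held 174, and Smox, Lef1 and Asns were not among them; the falling class held 155, of which 99 were shared.

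**Figure D2:**
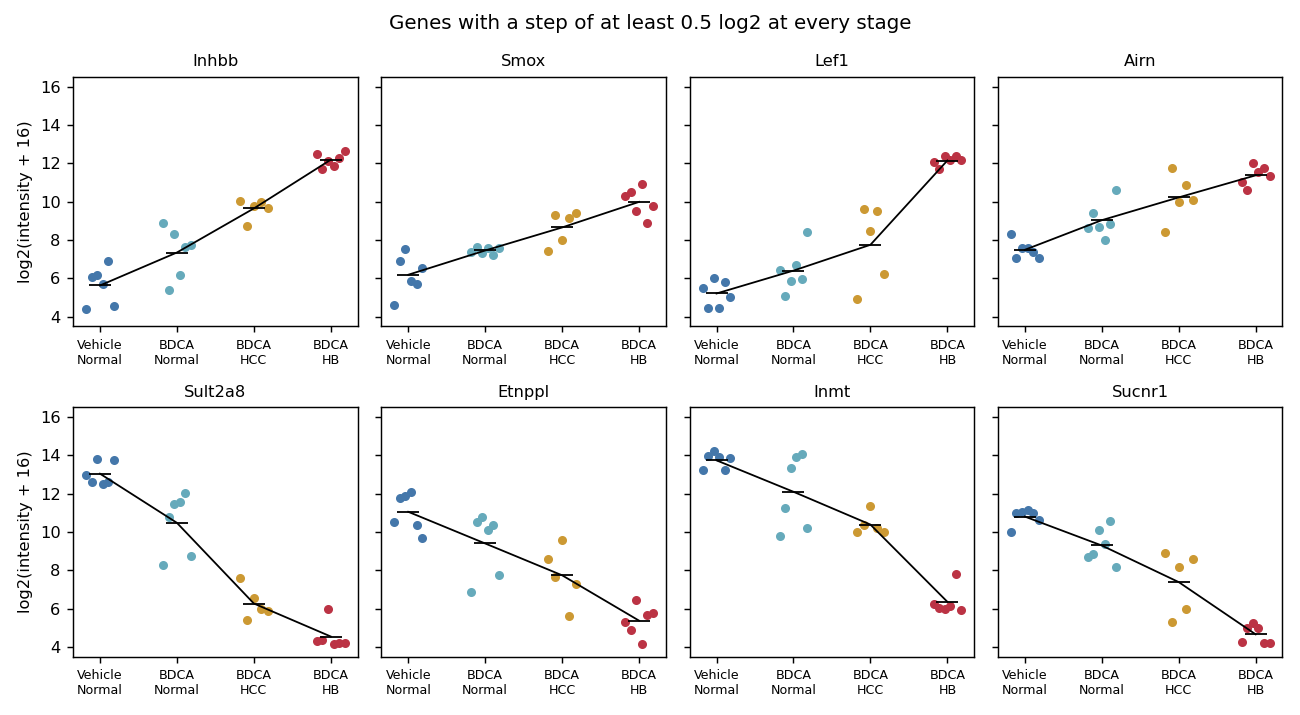
Log2(intensity + 16) of 4 rising genes (Inhbb, Smox, Lef1, Airn) and 4 falling genes (Sult2a8, Etnppl, Inmt, Sucnr1) with a step at each stage. Points are samples, dashes joined by a line are group means over 6, 6, 5 and 6 samples from vehicle liver to hepatoblastoma; Sult2a8 and Inhbb change along the whole order, whereas Lef1 makes most of its rise at the third step.

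The falling genes with the largest smallest steps were Sult2a8, Etnppl, Inmt, Sucnr1, Ighm, Mup3, Car3, Cyp2f2, Keg1 and Mmd2, several of them enzymes or secreted products of adult liver. Sult2a8, a liver sulfotransferase, had the largest smallest step of all 244 genes. It read 5794 to 14327 in vehicle liver (median 7120.4), 299.5 to 4226 in adjacent liver (median 2276), 26.1, 42.5, 47.1, 78.4 and 176 in the carcinomas, and 2.00 to 48.5 in hepatoblastoma (median 3.46). Every adjacent liver sample lay below every vehicle sample and every carcinoma below every adjacent liver sample, while carcinoma and hepatoblastoma overlapped through BDCA_HB replicate 3 (48.5). The slope was -2.97 ± 0.17 log2 per stage (limma adjusted p = 1.39e-13), with steps of -2.56 ± 0.53 (adjusted p = 0.0505), -4.21 ± 0.56 (1.20e-04) and -1.72 ± 0.56 (0.0121). With a pseudocount of 64 the third step of Sult2a8 was -0.82 (adjusted p = 0.153), and without BDCA_HCC replicates 1 and 5 together it was -1.38 (0.0806).

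Because the first step of Sult2a8 lay at the threshold, a count of 1 gene with all 3 steps called, namely Sult2a8, resulted after median centring, with the mean of probe sets, with 24 separate arrays, with a replicate block, with Xist signal as a covariate, and without BDCA_HB replicate 3, BDCA_HCC replicate 1, 4 or 5, or BDCA_Normal replicate 5. With array quality weights there were 2, Sult2a8 and Il1rap. The 1 gene was Inhbb without BDCA_Normal replicate 2 and Nudt7 without the 5 arrays with Xist signal. Nudt7, a peroxisomal coenzyme A hydrolase, read 4946 to 20240.1 in vehicle liver, 2694 to 5896 in adjacent liver, 1188 to 2302 in carcinoma and 257 to 584 in hepatoblastoma, so that only the first pair of stages overlapped. Its slope was -1.56 ± 0.09 log2 per stage (limma adjusted p = 2.04e-13).

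Etnppl, which breaks down phosphoethanolamine, read 809.9 to 4402 in vehicle liver (median 2458), 102 to 1767 in adjacent liver (median 1191), 33.4, 138, 185, 374 and 751 in the carcinomas and 1.83 to 73.1 in hepatoblastoma (median 29.3). Neighbouring stages overlapped at all 3 steps, and carcinoma already lay wholly below vehicle liver. The steps of Etnppl were -1.65, -1.66 and -2.36 log2, and its slope -1.87 ± 0.21 (limma adjusted p = 2.78e-08). Sucnr1, the succinate receptor, read 1014 to 2272 in vehicle liver (median 2034), 275 to 1535 in adjacent liver (median 546), 23.6, 46.7, 271, 373 and 471 in the carcinomas and 2.46 to 22.9 in hepatoblastoma (median 9.76). Its slope was -2.03 ± 0.16 (limma adjusted p = 5.60e-11).

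Inmt, an N-methyltransferase of small amines, read 9470.2 to 19323 in vehicle liver and 887 to 17452 in adjacent liver, then 1009, 1014, 1186, 1295 and 2619.8 in the carcinomas and 45.3 to 208 in hepatoblastoma. Adjacent liver was therefore the group with the widest spread for Inmt, reaching from the carcinoma range to the vehicle range. Cyp2f2, a cytochrome P450, read 7766 to 18214 in vehicle liver, 920.0 to 9448 in adjacent liver, 61.6, 105, 577, 1624 and 4965 in the carcinomas and 2.03 to 51.6 in hepatoblastoma. Its slope of -2.95 ± 0.23 log2 per stage was among the 4 steepest falls (limma adjusted p = 4.49e-11), and its called second step of -3.17 (0.0261) was not called without BDCA_HCC replicate 2 (-2.47, 0.0811) or 5 (-2.63, 0.102), or without BDCA_Normal replicate 2 (-3.12, 0.0530), 3 (-2.98, 0.0708), 4 (-2.97, 0.0651) or 5 (-2.97, 0.0655).

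Car3, a carbonic anhydrase of liver, muscle and fat, had no called step: it read 27436 to 40182 in vehicle liver and 108 to 20509 in adjacent liver, with steps of -2.47, -1.37 and -1.57 log2 (limma adjusted p = 0.381, 0.661 and 0.231) on a slope of -1.76 ± 0.33 (5.34e-05). Without BDCA_Normal replicate 1, which read 108, the first and second step of Car3 were -1.34 and -2.50. Mup3, a major urinary protein whose probe sets may also read near-identical family members, had a slope of -2.92 ± 0.29 (4.20e-09) and carcinoma values from 10.1 to 8591; its other probe set had a slope of -0.87. Keg1 had a slope of -2.33 ± 0.26, but without BDCA_Normal replicate 1, which read 49.0, its first step was -0.38 in place of -1.33 and it was outside the class, as it was without BDCA_HCC replicates 1 and 5 together. Mmd2 had a slope of -1.88 ± 0.16, with slopes of -1.20 and 0.07 on its other probe sets. Ighm, the immunoglobulin mu heavy chain of B cells, had a slope of -2.15 ± 0.22 (5.38e-09), but only 2 of its 8 probe sets moved one way at all 3 steps.

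The steepest slopes were not those of the graded genes alone. Upp2, a uridine phosphorylase of liver, had a slope of -3.04 ± 0.18 log2 per stage (limma adjusted p = 3.12e-13) with a first step of only -0.40. It read 9044 to 19515 in vehicle liver, 2480.1 to 26250.2 in adjacent liver, 307, 484, 549, 1364 and 7621 in the carcinomas and 0.2501 to 37.0 in hepatoblastoma. Its other probe sets had slopes of -2.78 and -1.09. Speer4cos rose by 2.64 ± 0.18 per stage, with steps of 0.12, 1.25 and 7.03. Apcdd1, a Wnt inhibitor at the cell surface, had steps of -0.07, 2.09 and 5.62. The second step of Apcdd1 was 0.25 to 1.22 on its other probe sets, and the third 5.13 to 7.02. Bex1, an X-linked gene of developing tissues, rose by 2.55 ± 0.18 per stage but did so between adjacent liver (15.6 to 462) and carcinoma (1124 to 17054), a step of 5.52 ± 0.60 (adjusted p = 2.39e-05), followed by 1.36 (0.0641) at the third. A steep straight line was thus fitted to very different shapes.

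Against the 244 genes with a step at each stage, 1975 genes (14.0%) changed in 1 group only, meaning that a group differed by at least 1 log2 from each of the others, with all 3 contrasts called, while the others lay within 0.5 log2 of each other. Hepatoblastoma was that group for 1961 genes (13.9%), 1194 higher (8.48%) and 767 lower (5.45%). The majority direction turned with the scaling, to 954 higher and 1058 lower after quantile normalization and 615 higher and 1341 lower after median centring; without the 5 arrays with Xist signal there were 841 higher and 646 lower. Carcinoma was that group for 12 genes (0.0852%), vehicle liver for 2 (0.0142%) and adjacent liver for none (0.00%). A further 17 genes (0.121%) changed in both tumours alike, 16 higher (0.114%) and 1 lower (0.00710%), and 60 (0.426%) turned, with a called second step reversed by the third, also called: 55 up and then down (0.390%) and 5 down and then up (0.0355%). The count for carcinoma was 27 without BDCA_HCC replicate 1, 6 without BDCA_HCC replicate 6 and 5 without BDCA_Normal replicate 5, and for both tumours 43, 8 and 11 without BDCA_HCC replicates 1, 5 and 6. For turning genes it was 148, 29 and 30 without BDCA_HCC replicates 1, 5 and 6, and 36 and 31 without BDCA_Normal replicates 3 and 5. Without the 5 arrays with Xist signal, 5 genes changed in both tumours and 36 turned. The count for vehicle liver was 0 without BDCA_Normal replicate 1, 3, 4 or 5 or Vehicle_Normal replicate 1, 2 or 4.

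Hoxd9, a posterior homeobox gene normally silent in adult liver, had the widest margin of the rising hepatoblastoma-only genes. It read 2.35 to 9.85 in vehicle liver, 2.07 to 5.16 in adjacent liver, 2.89, 4.19, 5.06, 6.33 and 68.4 in the carcinomas and 3843 to 5263 in hepatoblastoma (median 4370.4). The first 3 groups shared 1 low range, with a single carcinoma above it, and hepatoblastoma stood wholly apart. The steps were -0.18, 0.49 and 7.35 ± 0.31 log2 (limma adjusted p of the third, 3.60e-15), yet Hoxd9 also had a called slope of 2.35 ± 0.10 (6.07e-16), and its departure from a line was called (1.38e-11). Gbx2, another homeobox gene, and Slc14a1, a urea transporter, had the same shape, with 7.15 ± 0.33 and 7.18 ± 0.51 at the third step.

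The hepatoblastoma-only falls were led by secreted products of hepatocytes: Hrg, Hpx, Fgb, Hp and F9. Hrg, histidine-rich glycoprotein, read 15813 to 23719 in vehicle liver, 13494 to 22243 in adjacent liver, 6525 to 26033 in carcinoma and 2.90 to 769 in hepatoblastoma (median 53.1). Its steps were -0.07, -0.39 and -7.64 ± 0.63 log2 (limma adjusted p of the third, 2.04e-10). Carcinoma overlapped both normal groups, and the first and second step of Hrg were not called (0.984 and 0.874). Alb, albumin, had steps of -0.30, -0.11 and -4.10 ± 0.82 (adjusted p of the third, 1.88e-04), and in hepatoblastoma it ranged from 229 to 28758 (median 1102).

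The carcinoma-only genes were 11 higher (0.0781%) and 1 lower (0.00710%). Tff3, a trefoil peptide of mucosal secretions, read 6.15 to 200.0 in vehicle liver, 9.87 to 152 in adjacent liver, 253, 1018, 1179.8, 7144 and 9039 in the carcinomas and 8.70 to 293 in hepatoblastoma (median 12.99). All carcinomas lay above both normal groups, and 1 hepatoblastoma reached the lowest carcinoma. The second step was 5.12 ± 0.80 log2 (limma adjusted p = 0.00136) and the third -5.47 ± 0.80 (3.51e-06), while the linear trend of Tff3 was not called (0.141). Afp, the fetal counterpart of albumin, read 1762, 6009, 22975, 23115 and 39274 in the carcinomas against 799 to 2173 in vehicle liver, 1022 to 2074 in adjacent liver and 289 to 9107 in hepatoblastoma (median 953). Its second step of 2.92 (adjusted p = 0.0257) was not called without BDCA_HCC replicate 5 (2.49, 0.1003) or 6 (2.68, 0.0893), without BDCA_Normal replicate 5 (2.81, 0.0611) or without the 5 arrays with Xist signal (3.01, 0.0703). On the other Afp probe sets the second step was 4.22, 3.44 and 0.60.

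Spink1, a secreted trypsin inhibitor, had carcinoma values of 17.3, 228, 263, 2316 and 6203, of which the lowest lay within the other groups. Its second step was 3.68 (limma adjusted p = 0.0193), but 3.12 (0.0585) without BDCA_HCC replicate 2, 2.77 (0.0716) without BDCA_HCC replicate 6 and 3.65 (0.0705) without the 5 arrays with Xist signal. The lower gene was Zfp354b, a zinc finger gene, with a second step of -1.31 (0.0323) that was not called without BDCA_HCC replicate 5 (-1.20, 0.1003) or 6 (-1.35, 0.0680) or BDCA_Normal replicate 3 (-1.32, 0.0667), 5 (-1.25, 0.0735) or 6 (-1.19, 0.0673). Without the 5 arrays with Xist signal the carcinoma-only class held 1 gene.

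Gpc3, a glypican of fetal liver, showed the turning shape with a net rise. It read 29.4 to 94.6 in vehicle liver, 3.92 to 237 in adjacent liver, 871, 5009.9, 7643, 9409.6 and 16214 in the carcinomas and 129 to 1967 in hepatoblastoma (median 181). Carcinoma stood wholly above both normal groups, and hepatoblastoma lay between, overlapping carcinoma and adjacent liver but not vehicle liver. The second step was 5.46 ± 0.72 log2 (limma adjusted p = 1.20e-04) and the third -4.06 ± 0.72 (4.69e-05). Akr1c18, a hydroxysteroid dehydrogenase, had steps of 0.91, 5.16 and -4.94, and its trend was called (0.0276) but not without BDCA_HB replicate 5 (0.0863). In the opposite sense, Homer2, a synaptic scaffold gene, read 3.30 to 293 in carcinoma and 1630.2 to 3352 in hepatoblastoma, with steps of -2.28 (0.0134) and 4.02 (1.92e-07).

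In the genes changed alike in both tumours the second step was, by the rule of the class, the largest, at 75.1% to 131% of the difference between vehicle liver and hepatoblastoma (median 105%). Psat1, a serine synthesis enzyme, read 32.2 to 129 in vehicle liver, 48.8 to 106 in adjacent liver, 144, 1323, 3278, 4026 and 7150.1 in the carcinomas and 615 to 2749 in hepatoblastoma. Each tumour sample exceeded each normal sample. The second step was 4.49 ± 0.61 log2 (limma adjusted p = 1.74e-04) and the third -0.22 ± 0.61 (0.784). Without BDCA_HCC replicate 1, the carcinoma at 144, the third step of Psat1 was -1.10 (0.0320), and the gene was outside this class. Acadsb, a short branched-chain acyl-CoA dehydrogenase and the only lower gene of this class, had a second step of -1.12 ± 0.25 (0.0150) and then a step of -0.08 (0.805).

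The 14 genes called at the first step, of which Serpinb1a was in the graded class, were Gm19619, Mt2, Cep85, Gpx3, Dmxl2, Lepr, Slc6a9, Alas1, Nolc1, Tmc5 and Crybb3, higher in adjacent than in vehicle liver, and Sdhc, Serpinb1a and Mup10, lower; apart from Slc6a9 and Dmxl2 they were chosen for naming after their values were seen. Lepr, the leptin receptor, was 3.53 ± 0.67 log2 higher, followed by steps of 1.19 and -1.51. Mt2, a metallothionein, was 2.04 ± 0.32 higher, followed by steps of -0.96 and -2.62. Slc6a9, a glycine transporter, and Dmxl2 were the 2 vehicle-only genes: Slc6a9 read 317 to 709.9 in vehicle liver and 587 to 4279, 1123 to 2886 and 1720.0 to 5485 in the 3 later groups. The first step of Slc6a9 was 1.96 ± 0.38 (limma adjusted p = 0.0319), and it was not called with Xist signal as a covariate (1.67, 0.233), after quantile normalization (1.80, 0.0570), or without any 1 of BDCA_Normal replicates 1, 3, 4 and 5 and Vehicle_Normal replicates 1, 2, 4 and 6 (adjusted p from 0.0569 to 0.0847).

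**Figure D3:**
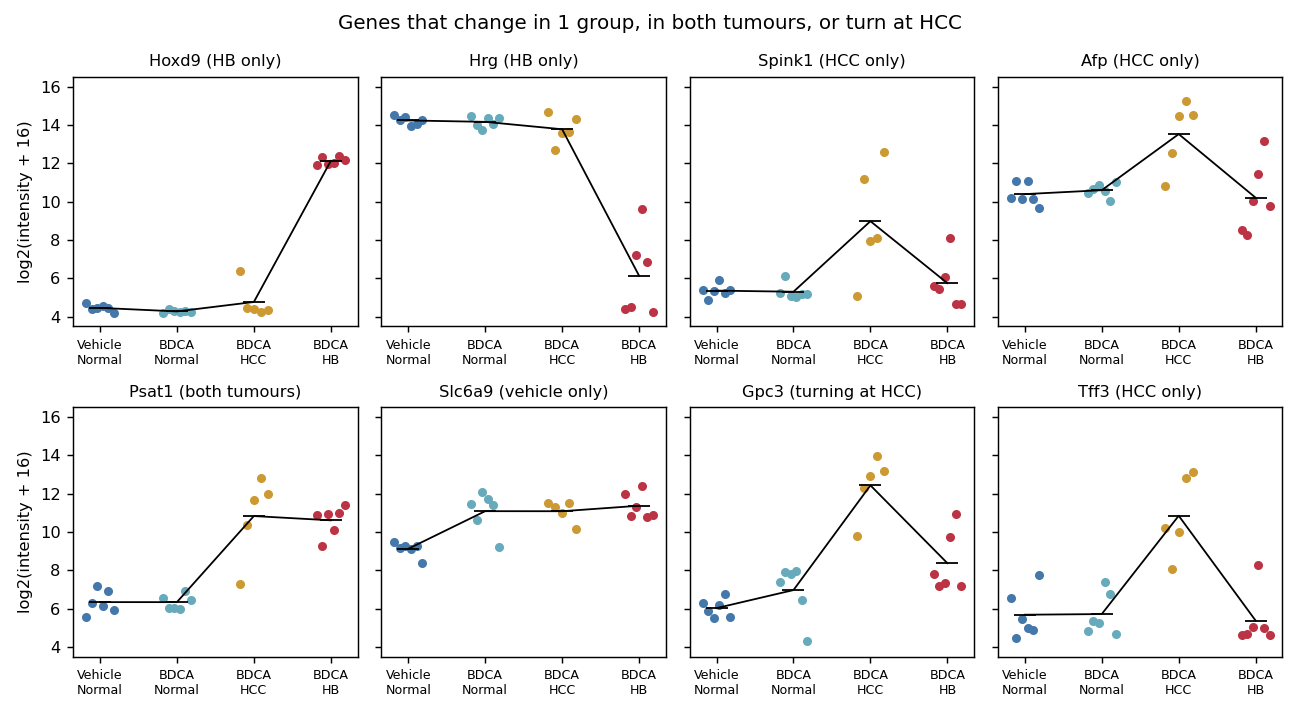
Log2(intensity + 16) of 8 genes that did not step at each stage: Hoxd9 and Hrg (hepatoblastoma only), Spink1, Afp and Tff3 (carcinoma only), Psat1 (both tumours), Slc6a9 (vehicle only) and Gpc3 (turning). Points are samples and dashes joined by a line are group means over 6, 6, 5 and 6 samples. Hoxd9, Hrg, Psat1 and Slc6a9 make a single jump beside flat stretches, which for Slc6a9 is at the first step. Spink1, Afp, Tff3 and Gpc3 rise at carcinoma and fall again at hepatoblastoma. The classes are defined by these steps, so the contrast with the sloping means of the graded genes follows from the rules.

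Among the genes called between adjacent liver and carcinoma, some had a further called step in the same direction. Igf2, a fetal growth factor, was one: it read 20.8 to 186 in vehicle liver, 5.16 to 98.3 in adjacent liver, 91.9, 152, 178, 581 and 1091 in carcinoma and 2007 to 10711 in hepatoblastoma. Its steps were -0.53, 2.47 (limma adjusted p = 0.0226) and 4.04 (2.10e-06), and the second was not called without BDCA_HCC replicate 5 (2.22, 0.0809) or 6 (2.00, 0.0922) or BDCA_Normal replicate 2 (2.21, 0.0572) or 5 (2.41, 0.0532).

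Gene lists were described by the same steps, as counts and medians with no test of a list. In all tested genes the median slope was 0.11 log2 per stage and the median steps 0.01, 0.05 and 0.19, and 36.7% rose and 22.5% fell. Of 20 Wnt target and feedback genes measured, 19 rose along the order and 0 fell (median slope 1.23, median steps 0.19, 0.74 and 2.62); no first or second step was called and the third step was in 19. Wif1, a secreted Wnt inhibitor, read 35.9 to 53.3, 3.11 to 82.1 and 17.3 to 544 in the first 3 groups and 10848 to 19478 in hepatoblastoma, with a slope of 2.45 ± 0.15 (limma adjusted p = 4.25e-13) and 7.11 at the third step. Axin2, the negative regulator of beta-catenin, was one of 5 members in the graded class, with Lef1, Myc, Znrf3 and Sp5 (the last pair named after their values were seen): it read 253 to 607 in vehicle liver, 299.8 to 1509 in adjacent liver, 276, 438, 1842, 2099.5 and 3466 in the carcinomas and 7883 to 9511 in hepatoblastoma. Its steps were 0.53, 1.00 and 2.93. Ctnnb1, beta-catenin itself, had steps of -0.15, 0.06 and 0.85 ± 0.15 (adjusted p of the third, 5.21e-05), and the third was 0.33 (0.165) after median centring. On the other Ctnnb1 probe sets, as deposited, the third step was 1.61 and 2.33.

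Of 24 proliferation genes, 23 rose and 0 fell, beside 36.7% and 22.5% of all genes (median slope 0.86, median steps 0.21, 0.82 and 1.55). Mki67, a marker of cycling cells, read 36.7 to 729.8 in vehicle liver, 206 to 875 in adjacent liver, 592 to 2760.1 in carcinoma and 968 to 6618 in hepatoblastoma, a slope of 1.29 ± 0.18 (limma adjusted p = 1.25e-06). Plk1, a mitotic kinase, rose with steps of 0.74, 1.28 and 0.81, and its carcinomas (57.8 to 170.0) lay wholly above adjacent liver (3.19 to 52.8), though the second step was not called. Of 6 HoxD genes, 5 rose, with median steps of 0.03, 0.41 and 5.52. The oncofetal list had another shape: 8 of 12 rose, the median second step was 1.93 with 7 called higher, and at the third step 4 were called higher and 4 lower (over all genes, 1.31% were called higher at the second step and 28.9% higher and 21.6% lower at the third). Sox4 rose at both tumour steps, by 1.39 ± 0.30 (adjusted p = 0.0140) and 2.23 ± 0.30 (9.31e-07), though the second step was 1.07 (0.0533) without BDCA_HCC replicate 6. Of 12 imprinted growth genes, 7 rose and 2 fell, with a median slope of 0.44, and 4 rose and 3 fell after median centring; the share that fell was near that of all genes. Dlk1, an imprinted fetal liver gene, had no called trend on its brightest probe set (slope 0.25 ± 0.14, 0.120), while the slope of the other was 0.96, with a second step of 1.58.

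Of 11 p53 target genes, 8 rose and 0 fell (median slope 0.35; over all genes 36.7% rose and 22.5% fell), but 4 rose and 1 fell after median centring. Phlda3 made called steps at both tumour stages, 2.91 ± 0.36 (limma adjusted p = 5.75e-05) and 2.16 ± 0.36 (1.87e-05), from 56.1 to 135 in adjacent liver to 2298 to 5363 in hepatoblastoma. Cdkn1a, the p21 cell-cycle inhibitor, rose along the order (slope 1.31 ± 0.19, 1.27e-06) with steps of 1.72, 1.89 and 0.13, and with 2.20, 0.96 and 1.32 on its other probe set. Of 12 glycolysis genes, 9 rose and 1 fell, against 6 and 3 after median centring, and Pkm, pyruvate kinase of fetal and tumour tissue, rose from 443 to 1527 in vehicle liver to 9729 to 18204 in hepatoblastoma (slope 1.31 ± 0.12, 5.36e-10). The ribosomal protein list served as a scale check and had no stable direction: of 14 genes, 7 rose and 2 fell as deposited, 12 and 0 after quantile normalization, and 1 and 6 after centring.

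Hepatocyte functions fell along the order in nearly every measured member, chiefly at the third step. Over all tested genes, 22.5% had a called falling trend. All 7 urea cycle genes, all 13 secreted plasma protein genes, all 22 complement and coagulation genes, all 15 bile acid genes, all 17 xenobiotic metabolism genes and all 14 fatty acid oxidation genes had a called falling trend, with median slopes of -1.16, -2.02, -1.93, -1.97, -2.03 and -0.78 log2 per stage. Their median first steps lay between -0.33 and -0.01, while the medians at the third step were -4.70, -6.47, -5.46, -4.73, -5.33 and -2.17. Otc, a urea cycle enzyme in the graded class, read 13379.8 to 17563 in vehicle liver, 3201 to 13757 in adjacent liver, 305, 1098, 5041, 5388 and 7033 in the carcinomas and 4.73 to 59.2 in hepatoblastoma, with steps of -0.81, -1.92 and -5.99. Cps1, the entry enzyme of that cycle, had steps of -0.35, -0.94 and -7.68.

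Bile acid and drug metabolism held most of the graded members among these lists. Over all tested genes, 22.5% had a falling trend, 26.9% moved one way at all 3 steps, up or down, and 1.09% were graded falls. Of the 15 bile acid genes, 11 went down at all 3 steps and 3 were in the graded class (Cyp7a1, Cyp8b1 and Abcb11, named after their values were seen). Of the 17 xenobiotic genes, 13 went down at all 3 steps and 5 were graded (Cyp1a2, Cyp2c29, Cyp2c50, Cyp2f2 and Ugt2b1, of which Cyp1a2 and Cyp2c29 were named after their values were seen). Slc10a1, the bile salt uptake transporter, read 11861 to 16239 in vehicle liver, 8504 to 15825 in adjacent liver, 2048, 4941, 5104, 7668 and 7902 in the carcinomas and 77.2 to 377 in hepatoblastoma, so that each group after adjacent liver lay wholly below the one before. Its slope was -1.97 ± 0.10 (limma adjusted p = 1.17e-14), though its second step of -1.17 was not called. Of 14 lipid synthesis genes, 12 fell, and the median first step of -0.95 was followed by 0.11 and -2.44. No first step was called in this list. Its mean log2 level per sample was 12.5 to 13.1 in vehicle liver and 10.1 to 12.7 (median 12.2) in adjacent liver. Insig1, a sterol sensor, did not overlap between vehicle liver (17926 to 21488) and adjacent liver (4694 to 16547). The first step of Insig1, -0.75, was not called (limma adjusted p = 0.276).

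Of 16 hepatocyte transcription factors, 11 fell and 3 rose, with median steps of 0.14, -0.30 and -3.90 (over all genes 22.5% fell and 36.7% rose). Cebpa, a driver of hepatocyte maturation, had a slope of -1.60 ± 0.09 (limma adjusted p = 5.12e-14) with steps of -0.62, -0.45 and -4.09. Nr1i3, the drug-sensing nuclear receptor CAR, had steps of 0.09, -0.93 and -4.89. Hnf4a, the main hepatocyte identity factor, lay between 8564 and 16277 over all samples of the first 3 groups and read 28.7 to 1543 in hepatoblastoma.

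**Figure D4:**
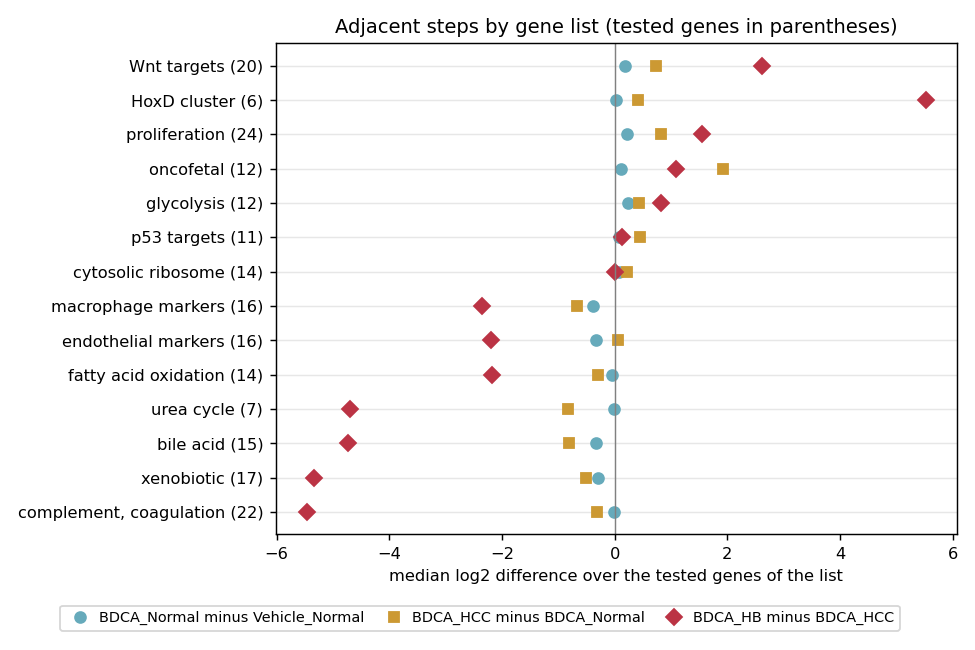
Median difference between adjacent groups, in log2, over the measured members of each gene list. Each list has 3 points, for the first step (adjacent liver minus vehicle liver), the second (carcinoma minus adjacent liver) and the third (hepatoblastoma minus carcinoma). The third step is the largest for most lists. The oncofetal (1.93), p53 target (0.44) and cytosolic ribosome (0.22) lists have their largest median step at carcinoma.

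The marker lists for cell types of the liver were counted in the same way, beside 36.7% rising and 22.5% falling over all genes. Of all genes, 26.9% moved one way at every step, up or down. All 7 hepatocyte markers fell, and their mean log2 level per sample was 14.5 to 15.1 in vehicle liver, 14.4 to 14.9 in adjacent liver, 13.5 to 14.7 in carcinoma and 5.84 to 12.2 in hepatoblastoma. The defining markers of liver tissue were thus high in 3 groups and lower in every hepatoblastoma. All 16 macrophage markers fell, with means of 9.84 to 11.5, 10.3 to 10.9, 7.69 to 11.2 and 6.61 to 7.96, and 13 went down at every step (median steps -0.38, -0.66 and -2.35). Timd4, a marker of resident Kupffer cells, read 169 to 712, 140.2 to 300.0, 27.6 to 172 and 6.77 to 38.3. Of 16 endothelial markers, 13 fell, with means of 9.81 to 10.0, 9.21 to 10.3, 8.45 to 10.5 and 6.64 to 7.87. Clec4g, a sinusoidal endothelial lectin in the graded class, read 4124 to 6041, 1908 to 5650.2, 399 to 3953 and 2.68 to 52.3.

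Of 17 stellate and mesenchymal markers, 5 rose and 7 fell, of 8 lymphocyte markers 1 rose and 4 fell, of 6 granulocyte markers 3 fell, of 2 erythroid markers 1 rose and 1 fell, and of 6 biliary markers 5 rose, which became 3 after either other scaling and 1 without the 5 arrays with Xist signal. The share of stellate and mesenchymal markers that rose was below the 36.7% of all genes, and nothing is read from the counts of these short lists. In whole tissue, fewer cells of a type and less RNA per cell cannot be told apart, and the part of these markers in the graded falls was not tested. The lists of sex-biased liver genes moved with Xist signal: of 8 female-biased genes 7 fell and of 7 male-biased genes 6 fell. For the female-biased genes the median first step was 0.38 over all arrays but 2.73 without the 5 arrays with Xist signal, while for the male-biased genes it was -0.59 and -1.95. Nudt7 and Mup3 belong to the male-biased list and Cyp2b9 and Cyp2b13 to the female-biased list, and all 4 are in the graded falling class.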

How the data were processed

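RNA of 24 liver samples was amplified, labelled and hybridised to 1-colour oligonucleotide arrays. The deposited values are intensities of 45101 probe sets, made with MAS5 per the submitters' processing notes (version not given in the sources used here) and scaled, as the deposited values show, to a 2% trimmed mean of 500 per array. Only this value table was used, without further normalization, as log2(intensity + 16). A gene needed 1 annotated gene per probe set (34945 of 45101; 932 had several, 9160 none, 64 were controls) and a 6th highest of 24 values above the 40th percentile (66.3), which left 14086 genes, each by its brightest probe set. Depth has no counterpart on arrays: the number of samples (6, 6, 5 and 6 from vehicle liver to hepatoblastoma) limits precision.

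limma 3.58.1 (R 4.3.3) fitted 1 mean per group with an intensity trend in the variance. From it came a slope, a 2-df F test of departure, the adjacent steps and the trends over 3 groups, each two-sided with Benjamini-Hochberg adjustment over all 14086 genes at 0.05. The rest was drawn with Python 3.11.15 and matplotlib 3.10.9. The replicate numbers were not taken to pair the samples: of 36 correlations between deviations of same-numbered samples, with a median of -0.00481, 2 were over 0.1, the higher being 0.505 between BDCA_Normal and BDCA_HCC replicate 1. The fit was tested on simulated data. Named genes were the 10 per direction with the largest smallest step, the 4 steepest slopes per direction, up to 5 per class and direction, up to 4 per list by trend p, and 17 liver tumour genes; others are marked where named. The members, classes and lists were chosen with earlier results of these data known. Alternatives were other pseudocounts (1, 64), scalings, filters, probe set rules, fits, class limits and sample sets.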

Additional observations from a re-analysis of the deposited data

Results flagged for a closer look

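The highest or lowest sample of a group was compared with the others on the log2 scale, and values below are intensities. There were 148 such comparisons, over named genes and the leading axis of variation. Chance sets apart about 1 in 20, and 16 were found. Among genes with a step at each stage, Inhbb read 413 in BDCA_HCC replicate 2 (others 811 to 1028), Golm2 27.0 in BDCA_Normal replicate 6 (126 to 209), Kif20a 869 in BDCA_HCC replicate 5 (177 to 277) and Asns 150.1 in BDCA_HCC replicate 1 (1469.7 to 2444). Sult2a8 read 48.5 in BDCA_HB replicate 3 (2.00 to 4.66), Inmt 2619.8 in the averaged BDCA_HCC replicates 3 and 4 (1009 to 1295) and 208 in BDCA_HB replicate 5 (45.3 to 61.0), and Ighm 515 in Vehicle_Normal replicate 3 (3276 to 5485). BDCA_Normal replicate 1 had the low values of Car3 (108; others 8357 to 20509) and Keg1 (49.0; 2339 to 5165).

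Among the other named genes, Ctnnb1 read 5528 in BDCA_HCC replicate 1 (8047 to 8584), Glul 25343 in BDCA_HB replicate 4 (8764 to 12663) and Myc 274 in Vehicle_Normal replicate 2 (496 to 590.1). Cps1 read 18008 in Vehicle_Normal replicate 5 (24851 to 28588), 8902 in BDCA_Normal replicate 6 (18937 to 29685) and 1234 in BDCA_HB replicate 4 (0.722 to 24.2).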

How the results depend on the processing

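Counts below follow the order and limits of the report. With a pseudocount of 1, 9 genes were called at the first step, 10 changed in both tumours and 34 turned; with 64, 25 were called at the first step, 142 stepped at each stage and 25 changed in carcinoma only. Quantile normalization gave 0 vehicle-only and 9 both-tumour genes; median centring 1 gene with all 3 steps called, 20 carcinoma-only and 1 vehicle-only; no filter 19 carcinoma-only; the mean of probe sets 1 with all 3 steps called and 4 vehicle-only; and no intensity trend 1 vehicle-only. With 24 separate arrays there were 422 at the second step, 1 with all 3 steps called, 1 adjacent-liver-only and 29 both-tumour genes. Array quality weights gave 56 at the first and 562 at the second step, 2 with all 3 called, 25 carcinoma-only, 5 vehicle-only, 1 adjacent-liver-only, 46 both-tumour and 118 turning genes. The replicate block, on numbers that did not pair the samples, gave 387 at the second step and 1 with all 3 called, with 8384 trend calls. Xist signal as a covariate gave 6 at the first step, 1 with all 3 called, 4 carcinoma-only, 1 vehicle-only and 410 trends over the first 3 groups; leaving out the 5 arrays with Xist signal gave 1 with all 3 called, 1 carcinoma-only, 5 both-tumour, 36 turning and 193 trends over the first 3 groups. Without BDCA_HCC replicates 1 and 5 together there were 42 at the first step, 20 carcinoma-only, 1 vehicle-only and 34 both-tumour genes. Stricter limits (steps of 1 log2, closeness of 0.25) left 34 genes with a step at each stage, 686 hepatoblastoma-only, 3 carcinoma-only, 1 vehicle-only and 3 both-tumour genes. The cause of these shifts was not tested.

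Leaving out each sample in turn gave 7952 to 8452 trend calls, 4059 to 4634 departures, 2 to 33, 130 to 609 and 6635 to 7199 calls at the 3 steps, 199 to 277 genes with a step at each stage, 0 to 1 with all 3 called, 1824 to 2047 hepatoblastoma-only, 5 to 27 carcinoma-only, 0 to 3 vehicle-only, 0 adjacent-liver-only, 8 to 43 both-tumour and 29 to 148 turning genes, and 656 to 1195 and 7502 to 8092 trends over the first and last 3 groups.

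Of the slopes of named genes under the alternatives, 2890 kept direction and side of the threshold, 33 lost the call, 9 gained it and 15 changed sign. Those were Afp at -0.0784 without BDCA_HB replicates 4 and 5, Cdhr2 at -0.000929 after centring, Rps2 at 0.0252 and Glul at 0.0271 after quantile normalization, Ngp at 0.28 and 0.34 and Xist at 0.29 and 0.25 without the Xist arrays and with the covariate. Zfp354b changed sign at 9.95e-05 with weights, 0.00119 with stage as a number, 0.12 without the Xist arrays, 0.13 with the covariate, 0.0366 without BDCA_HB replicates 4 and 5, 0.0079 without BDCA_HCC replicates 1 and 5, and 0.0385 without BDCA_HB replicate 4, the highest with 1 sample left out; the lowest, -0.0808 without Vehicle_Normal replicate 6, kept the sign it had over all samples. Glul lost its trend call without Vehicle_Normal replicate 1 (-0.17, adjusted p = 0.104).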
